A study of Mus musculus with 36 samples.

Results

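Annexins, S100 proteins and their partners were followed in mouse eosinophils from marrow and blood into tissue. The list held 9 genes: Anxa1, Anxa2, S100a4, S100a6, S100a10, S100a11, Lgals1, Emp3 and Lmna. They had been chosen by their low TPM levels in gut eosinophils of these data, and were matched by symbol. Of the 9, 8 were among the 9844 genes of the tissue table and 7 among the 8001 genes of the sorted table. S100a4 was not analysed here, and Anxa1 was not analysed in the sorted libraries. Because gut levels chose the genes, the gut values below are a description with no test, and tests are given for marrow, blood, spleen, lung, skin and the reporter sort.

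Eosinophils are granulocytes of blood and mucosal tissues. Total eosinophils of wildtype C57BL/6 mice gave 24 libraries, 4 each from blood, spleen and small intestine and 3 each from bone marrow, lung, skin and colon. Another 11 libraries held small intestine eosinophils of C57BL/6 mice of the NMUR1-TdT reporter genotype, in which a fluorescent protein marks cells using Nmur1, a receptor of neuromedin U. Of these, 5 were Nmur1+ and 6 were Nmur1-. All mice were 8 to 12 weeks old and untreated (steady state), and both sexes were pooled. Libraries were full-length Smart-seq2, and levels are TPM (transcript abundance scaled to a fixed library total), corrected for transcript length so that genes can be compared with each other. TPM keeps no read depth, so the depth behind each value is unknown. Whether replicates came from separate animals is not in the labels, and p-values therefore reflect only library-to-library spread, part of which may be technical.

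Annexins are calcium-dependent proteins that bind the inner face of cell membranes. S100 proteins are small EF-hand proteins, most of them calcium sensors, that work by binding partners: S100A10 and annexin A2 form a complex that links membranes to the actin cortex and, at the surface, binds plasminogen. S100A11 pairs with annexin A1, a protein secreted by leukocytes that limits granulocyte recruitment and is induced by glucocorticoids.

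The label "lost in gut" held for the small intestine but only in part for the colon. All 8 measured genes were lower in small intestine than in colon, and 8 of 8 were lower than in blood, though for Lgals1 the small intestine and blood values overlapped. Small intestine means were 2.12% of the blood mean for Anxa1, 4.30% for S100a6, 8.17% for S100a10, 9.99% for Emp3, 23.6% for Lmna, 42.5% for Anxa2, 45.1% for S100a11 and 77.6% for Lgals1. Colon means were below blood for Anxa1 (17.1%), S100a6 (40.5%), S100a10 (45.6%), S100a11 (68.3%) and Emp3 (87.4%), and above it for Anxa2 (125%), Lgals1 (264%) and Lmna (1137%). Emp3 in colon overlapped blood. In bulk RNA, fewer cells of a type and less RNA per cell cannot be told apart.

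**Figure D1:**
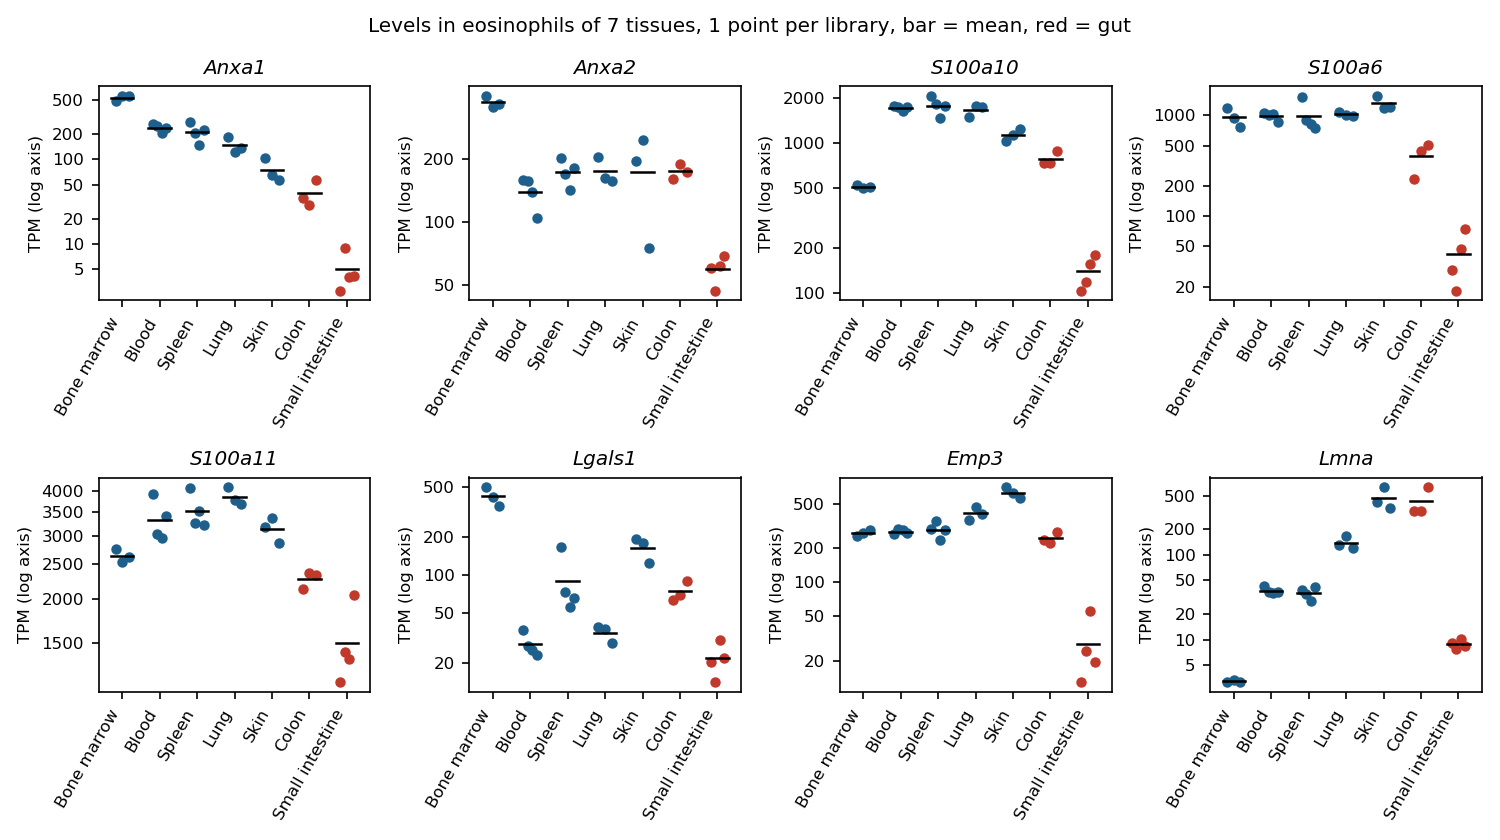
Level of each of the 8 measured genes (TPM, log axis) in the 24 tissue libraries, ordered from bone marrow to small intestine; each point is a library, bars are group means, and gut libraries are red. All 8 genes sat lower in small intestine than in colon, and Lmna alone was lowest in bone marrow.

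Sequence just upstream of a RefSeq start was looked at for S100a6, Emp3 and Lmna. These had the largest drops from colon to small intestine among the 8 together with Anxa1. RefSeq (GRCm38.p6) gave promoter windows for 7 of the 9 genes, 9 windows in all. The stretch from 250 to 51 bases before the start was searched on both strands for 8 motifs, and the capitals mark matches to the glucocorticoid receptor hexamer TGTTCT or its reverse complement. The windows were S100a6 at chr3:90612644-90612843 (plus strand), Emp3 at chr7:45921477-45921676 (minus strand) and Lmna at chr3:88503403-88503602 (minus strand). The Lmna window lies inside the annotated gene (chr3:88480147-88509956), before an internal start and not at the 5' end of the gene.
S100a6: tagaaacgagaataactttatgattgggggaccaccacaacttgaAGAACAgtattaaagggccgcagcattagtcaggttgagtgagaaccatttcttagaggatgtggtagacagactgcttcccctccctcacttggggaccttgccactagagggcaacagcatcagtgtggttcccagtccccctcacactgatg
Emp3: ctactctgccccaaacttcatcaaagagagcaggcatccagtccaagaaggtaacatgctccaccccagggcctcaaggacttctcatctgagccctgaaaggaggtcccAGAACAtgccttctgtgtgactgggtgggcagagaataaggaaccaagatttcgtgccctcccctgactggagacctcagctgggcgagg
Lmna: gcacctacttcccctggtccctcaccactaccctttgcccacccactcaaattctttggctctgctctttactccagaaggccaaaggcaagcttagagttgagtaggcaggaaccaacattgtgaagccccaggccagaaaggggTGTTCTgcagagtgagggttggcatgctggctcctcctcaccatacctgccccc
Each of the 3 windows held 1 match, and none held any other motif searched. RefSeq gave another start for Emp3 (window chr7:45920900-45921099) and for Lmna (window chr3:88493363-88493562), and those windows also lie inside the annotated genes. Neither of those windows held a match to any of the 8 motifs, so the windows shown for these genes are the ones with a match. That hexamer was in 13.2% of the 32841 promoter windows of the same length, so a match is a description of letters only. The other motifs were AP-1 TGANTCA (5.58% of windows), the GC box GGGCGG (24.6%), TEAD GGAATG (10.7%), the CArG box (1.16%), PU.1 GAGGAA (18.8%), AGATAA for GATA factors (8.42%) and TTGCNNAA for C/EBP factors (8.11%). Among the 9 windows, the hexamer was in only the 3 printed. The Anxa1 window had no match to it, and held 1 match each to TEAD, PU.1 and C/EBP. The Anxa2 window held 1 match each to AP-1 and the GC box, and the S100a4 window none to any motif. The S100a11 window held 1 match each to AP-1, the GC box, PU.1 and GATA. No motif match overlapped another in the windows printed.

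Anxa1, the annexin known for restraining granulocyte recruitment, spans chr19:20373428-20390944 on the minus strand (GENCODE M21, GRCm38, ENSMUSG00000024659.15). Its TPM in the 3 bone marrow libraries was 488, 553 and 563, and in the 4 blood libraries 260, 247, 207 and 231. Spleen libraries had 278, 203, 149 and 220 TPM, and lung libraries 184, 123 and 136 TPM. Levels thus fell from marrow to blood with no overlap, and the spleen range covered the blood range. Skin libraries had 103, 64.8 and 57.1 TPM, colon libraries 35.0, 29.2 and 56.7 TPM, and small intestine libraries 2.81, 8.96, 4.04 and 4.19 TPM. The order of means was bone marrow (535 ± 40.7, SD, n = 3), blood (236 ± 22.9, SD, n = 4), spleen (213 ± 53.0, SD, n = 4), lung (147 ± 32.1, SD, n = 3), skin (74.8 ± 24.4, SD, n = 3), colon (40.3 ± 14.5, SD, n = 3) and small intestine (5.0 ± 2.71, SD, n = 4). Blood and spleen were the only neighbours in that order whose means differed by less than the larger SD. Anxa1 was the member with a descent at nearly every step.

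Anxa2, which forms the membrane complex with S100A10, spans chr9:69453620-69491795 on the plus strand (ENSMUSG00000032231.14). In bone marrow its libraries had 402, 355 and 366 TPM, and blood libraries 158, 157, 139 and 105 TPM. Spleen libraries had 201, 169, 142 and 181 TPM, and lung libraries 206, 162 and 157 TPM. Marrow was the high tissue, and the others from blood to colon lay close together. Skin libraries had 196, 248 and 75.2 TPM, colon libraries 161, 189 and 173 TPM, and small intestine libraries 59.9, 46.8, 61.7 and 69.0 TPM. Lung (175), colon (174), spleen (173), skin (173) and blood (140) means differed from their neighbours by less than the larger SD, and small intestine (59.3 ± 9.22, SD, n = 4) stood below every library of the other 6 tissues.

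S100a10, the partner of annexin A2, spans chr3:93555080-93564643 on the plus strand (ENSMUSG00000041959.14). Bone marrow libraries had 521, 504 and 509 TPM, and blood libraries 1766, 1743, 1624 and 1728 TPM. Spleen libraries had 2059, 1806, 1472 and 1755 TPM, and lung libraries 1487, 1748 and 1724 TPM. Unlike Anxa2, S100a10 was higher in every blood library than in any marrow library. Skin libraries had 1028, 1132 and 1238 TPM, colon libraries 732, 734 and 881 TPM, and small intestine libraries 104, 119, 156 and 181 TPM. Spleen, blood and lung means differed by less than the larger SD, and skin, colon, bone marrow and small intestine (140 ± 34.9, SD, n = 4) followed in separate steps.

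S100a11, the partner of annexin A1, spans chr3:93520488-93526287 on the plus strand (ENSMUSG00000027907.4) and was the most abundant member in every tissue. Bone marrow libraries had 2748, 2529 and 2606 TPM, and blood libraries 3907, 3021, 2953 and 3409 TPM. Spleen libraries had 4070, 3248, 3521 and 3218 TPM, and lung libraries 4091, 3761 and 3684 TPM. Lung, spleen, blood and skin means formed a plateau in which no neighbours differed beyond the larger SD. Skin libraries had 3178, 3368 and 2865 TPM, colon libraries 2126, 2363 and 2324 TPM, and small intestine libraries 1169, 1421, 1361 and 2046 TPM. The small intestine mean (1499 ± 380, SD, n = 4) was the lowest, and its highest library lay just under the lowest colon library.

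S100a6, a calcium sensor also known as calcyclin, spans chr3:90612882-90624181 on the plus strand (ENSMUSG00000001025.8). Bone marrow libraries had 1177, 934 and 766 TPM, and blood libraries 1050, 1001, 1026 and 854 TPM. Spleen libraries had 1511, 905, 812 and 750 TPM, and lung libraries 1069, 1009 and 985 TPM. From marrow through lung the ranges overlapped, with neighbouring means within the larger SD. Skin libraries had 1566, 1195 and 1209 TPM, colon libraries 235, 446 and 514 TPM, and small intestine libraries 29.1, 18.2, 46.9 and 74.8 TPM. Every colon library lay below every library of the 5 non-gut tissues, and every small intestine library below every colon library.

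Emp3, a small membrane protein of the PMP22 family, spans chr7:45918023-45921404 on the minus strand (ENSMUSG00000040212.12). Bone marrow libraries had 255, 276 and 291 TPM, and blood libraries 267, 296, 289 and 275 TPM. Spleen libraries had 297, 350, 235 and 293 TPM, and lung libraries 360, 469 and 405 TPM. Spleen, blood and marrow means differed by less than the larger SD. Skin libraries had 699, 616 and 556 TPM, colon libraries 235, 225 and 278 TPM, and small intestine libraries 12.9, 24.5, 55.8 and 19.3 TPM. Colon overlapped marrow, spleen and blood, so the low level was seen in small intestine alone (28.1 ± 19.0, SD, n = 4).

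Lgals1 encodes galectin-1, a lectin that binds sugar chains on cell surfaces, and spans chr15:78926725-78930465 on the plus strand (ENSMUSG00000068220.6). The 3 marrow libraries had 498, 418 and 355 TPM, and blood libraries 36.8, 27.2, 25.5 and 23.0 TPM. Spleen libraries had 166, 73.9, 55.8 and 65.9 TPM, and lung libraries 38.5, 37.0 and 29.0 TPM. The large loss of Lgals1 was thus between marrow and blood. Skin libraries had 192, 178 and 126 TPM, colon libraries 62.9, 69.7 and 90.4 TPM, and small intestine libraries 20.5, 14.1, 30.5 and 22.2 TPM. Small intestine (21.8 ± 6.76, SD, n = 4) and blood (28.1 ± 6.05, SD, n = 4) differed by less than the larger SD, as did spleen and colon.

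Lmna encodes the lamins A and C of the nuclear envelope, whose amount is known to scale with tissue stiffness, and spans chr3:88480147-88509956 on the minus strand (ENSMUSG00000028063.15). The marrow libraries had 3.18, 3.35 and 3.15 TPM, and blood libraries 42.5, 36.2, 35.3 and 36.7 TPM. Spleen libraries had 38.1, 34.1, 28.8 and 41.4 TPM, and lung libraries 129, 165 and 120 TPM. Marrow was the lowest tissue, and lung lay above all blood and spleen libraries. Skin libraries had 418, 628 and 353 TPM, colon libraries 330, 331 and 624 TPM, and small intestine libraries 9.17, 7.84, 10.2 and 8.35 TPM. Skin (466.2 ± 144, SD, n = 3) and colon (428 ± 169, SD, n = 3) differed by less than the larger SD, and the colon mean was 48.2 times the small intestine mean (8.88 ± 1.014, SD, n = 4). This was the widest gap between the gut tissues among the 8 genes.

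Each tissue was then compared with blood, the only circulating population, by limma on log2(TPM + 1), with p-values adjusted by the Benjamini-Hochberg method over all 9806 genes tested. The comparisons share the 4 blood libraries and are therefore not independent of each other. The median gene moved by -0.06 in blood against bone marrow, 0.11 in spleen, -0.43 in lung, 0.17 in skin, 0.10 in colon and 0.14 in small intestine against blood, all on the log2 scale. Changes below are relative to that median gene, whereas the tests are against 0 before this shift. A gene was called at an adjusted p under 0.05.

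From bone marrow to blood, 5 of the 8 genes were called, against 34.6% of all genes tested. Lgals1 fell by 3.81 (log2, SE 0.29, limma adjusted p = 1.24e-10), Anxa2 fell by 1.37 (SE 0.25, adjusted p = 7.52e-05) and Anxa1 fell by 1.12 (SE 0.27, adjusted p = 0.00129). Lmna rose by 3.25 (SE 0.22, limma adjusted p = 4.43e-11) and S100a10 rose by 1.80 (SE 0.15, adjusted p = 9.29e-10). Anxa2 and S100a10, the members of 1 complex, thus changed in opposite directions. With a pseudocount of 5 in place of 1, the rise of Lmna was 2.40. S100a11 was 0.39 higher (95% interval 0.11 to 0.67, limma adjusted p = 0.0648), and passed the threshold with only the 2 tissues in the fit (adjusted p = 0.0322), with quantile normalization (0.0385), with a robust spread estimate (0.0495) and without blood replicate 3 (0.0499). S100a6 differed by 0.11 (95% interval -0.53 to 0.76) and Emp3 by 0.10 (-0.44 to 0.64), and quantile normalization turned both below 0. Marrow libraries also carried neutrophil and granulocyte precursor markers: 11 of 12 were in the table, and without Retnlg, left out after its level had been seen to dominate the list, the other 10 summed to between 48810 and 55400 TPM in marrow and between 26.9 and 74.4 TPM in blood. The 8 macrophage and monocyte markers in the table, of 12 listed, summed to between 4510 and 5042 TPM in marrow, mostly Ly6c2, and between 292 and 435 TPM in blood. Nkg7, the 1 of 11 T, natural killer and innate lymphoid cell markers in the table, was at 594 to 755 TPM in marrow and at 0 in 3 of 4 blood libraries. The part of those cells in the marrow values was not tested.

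In spleen, 1 of 8 genes was called, against 1.09% of all genes tested. Lgals1 rose by 1.42 (SE 0.26, limma adjusted p = 0.00189), by 1.04 without spleen replicate 1, whose 166 TPM stood apart (adjusted p = 0.00619), and was not called when only spleen and blood entered the fit (adjusted p = 0.178). The other 7 genes lay between -0.29 for Anxa1 and 0.21 for Anxa2, with limma adjusted p of 0.763 or more. The 10 neutrophil and precursor markers summed to between 644 and 8892 TPM in spleen, with 1852 TPM in the library of high Lgals1. The 4 of 8 dendritic cell markers in the table summed to between 109 and 306 TPM in spleen and between 1.42 and 61.2 TPM in blood. The part of these cells in the rise was not tested.

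In lung, 2 of 8 genes were called, against 35.7% of all genes tested. Lmna rose by 2.26 (SE 0.22, limma adjusted p = 4.06e-07). Anxa1 was 0.27 lower (SE 0.27, limma adjusted p = 0.0481), a call that was lost with median-ratio scaling (adjusted p = 0.489), with a pseudocount of 0.1 (0.0651) and without any of the 4 blood libraries or lung replicate 2 or 3 (0.0526 to 0.168). With median-ratio scaling, 4 members were called, against 3159 of all 9806 genes. All 4 were higher: Lmna, Emp3 (1.07, limma adjusted p = 0.00633), S100a11 (0.75, adjusted p = 0.00283) and Anxa2 (0.86, adjusted p = 0.0315). With only lung and blood in the fit 3 were called, against 3052 of all 9806 genes, Emp3 being added (limma adjusted p = 0.00729). S100a10 and S100a6 were 0.37 and 0.48 above the median gene in lung and below it after quantile normalization, which put S100a11 at 0.02.

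In skin, 5 of 8 genes were called, against 37.1% of all genes tested. Lmna rose by 3.39 (SE 0.22, limma adjusted p = 3.12e-12), Lgals1 rose by 2.34 (SE 0.29, adjusted p = 1.16e-07) and Emp3 rose by 0.97 (SE 0.26, adjusted p = 0.00122). Anxa1 fell by 1.86 (SE 0.27, limma adjusted p = 1.96e-05) and S100a10 fell by 0.77 (SE 0.15, adjusted p = 0.00182). Anxa1 and S100a10 were therefore already lower than in blood outside the gut. S100a6, S100a11 and Anxa2 were not called, and Anxa2, at -0.01 (95% interval -0.53 to 0.51), was 0.51 higher without skin replicate 4 (limma adjusted p = 0.00621). S100a6 was 0.25 higher and was called with only skin and blood in the fit (limma adjusted p = 0.0407). Of 9 keratinocyte markers 3 were in the table, and they summed to between 42.5 and 134 TPM in skin and between 26.6 and 39.6 TPM in blood, with Dsp at 0 in 1 of the 3 skin libraries. The 8 macrophage and monocyte markers in the table, of 12 listed, summed to between 556 and 895 TPM in skin and between 292 and 435 TPM in blood, where C1qa and C1qb were at 0 in all 4 libraries. Dendritic cell markers summed to between 93.8 and 169 TPM in skin. The part of these cell types in the skin values was not tested.

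**Figure D2:**
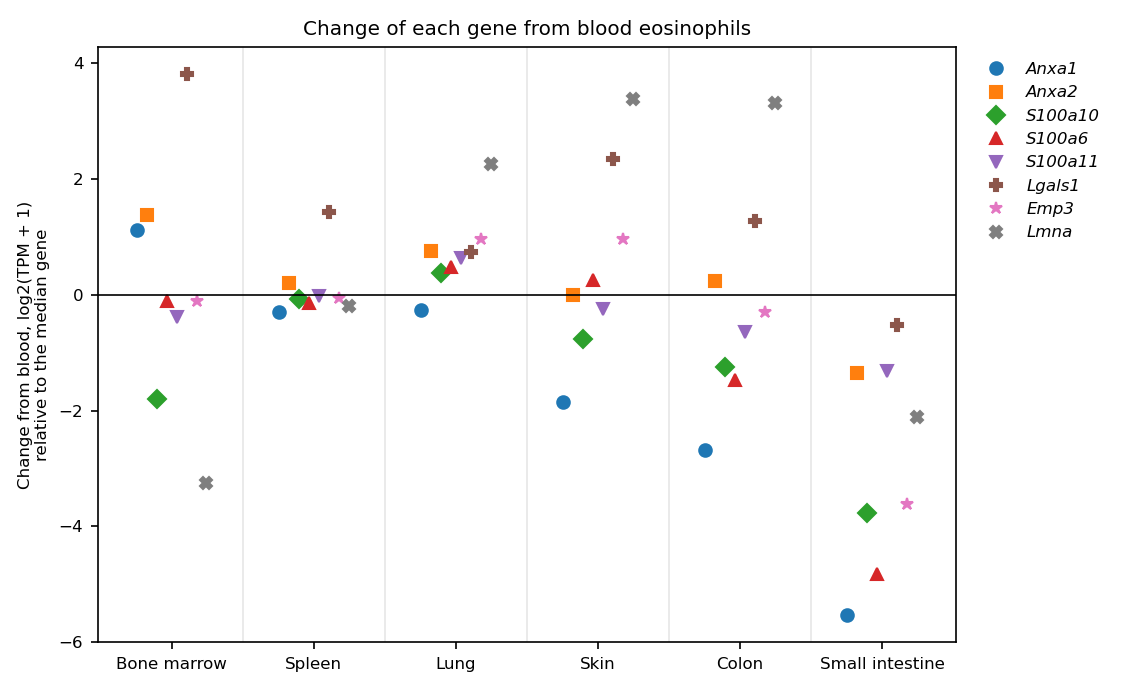
Change of each member against blood, relative to the median gene (log2 scale), in bone marrow, spleen, lung, skin, colon and small intestine; gut values are descriptions with no test. Anxa1 ran down through skin, colon and small intestine, while Lmna and Lgals1 were above blood in skin and colon and below it in small intestine.

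In the gut, whose levels chose the genes, the fitted changes are given for size alone. In colon the members' median change from blood was -0.47 relative to the median gene of all genes, with 5 of 8 below 0, where 31.9% of all genes were called in either direction. Anxa1 (-2.67), S100a6 (-1.47) and S100a10 (-1.24) were the lowest there, and Lmna (3.31) and Lgals1 (1.27) the highest. In small intestine the members' median was -2.86, with 8 of 8 below 0, where 44% of all genes were called. Anxa1 (-5.53), S100a6 (-4.83), S100a10 (-3.78) and Emp3 (-3.62) were lowest, followed by Lmna (-2.11), Anxa2 (-1.35), S100a11 (-1.31) and Lgals1 (-0.52). From colon to small intestine the median was -2.69, where 12.7% of all genes were called, and Lmna (-5.40), S100a6 (-3.34), Emp3 (-3.30) and Anxa1 (-2.85) had the largest drops. For Anxa1, S100a6, S100a10 and S100a11 the level was thus below blood in colon and lower again in small intestine. Emp3 (-0.30) and Anxa2 (0.23) lay near blood in colon and below it in small intestine. For Lgals1 and Lmna, the gap between the gut tissues included a colon level above blood, and Lgals1 in small intestine overlapped blood. Colon and small intestine are separate tissues, not successive steps.

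Eosinophil receptors marked all 7 tissues, with mean levels from 119 to 296 TPM for Siglecf, 311 to 1288 TPM for Ccr3 and 27.7 to 89.7 TPM for Il5ra. Some of the 12 eosinophil markers listed were far less even. Prg2 had a mean of 72330 TPM in marrow, 78.0 in blood and 55.1 in small intestine. Epx had a mean of 1520 TPM in marrow and 114 in spleen. It was at 0 in all 3 colon libraries, with means of 0.83 to 1.29 TPM in blood, lung, skin and small intestine. The 12 summed to 64430 to 89530 TPM in marrow, 3260 to 3687 in blood and 1803 to 2100 in lung. In colon their sum was 4931 to 5231 TPM, and in small intestine 3518 to 4038 TPM. Other cell markers also differed between gut and blood. The 4 dendritic cell markers summed to between 104 and 572 TPM in small intestine, between 86.2 and 325.5 TPM in colon and between 1.42 and 61.2 TPM in blood. The 2 of 8 B and plasma cell markers in the table summed to between 13.8 and 918 TPM in small intestine, mostly Jchain, between 1.83 and 17.8 TPM in colon and between 0 and 9.53 TPM in blood. The 8 macrophage and monocyte markers summed to between 646 and 1013 TPM in small intestine, with C1qa at 0 in 1 of 4 libraries, and between 406 and 461 TPM in colon. The 5 of 11 stroma and endothelium markers in the table summed to between 173 and 222 TPM in small intestine, between 106 and 168 TPM in colon and between 43.8 and 70.4 TPM in blood, mostly Pecam1. The 5 of 12 gut epithelium markers summed to between 101 and 230 TPM in small intestine, between 59.0 and 136.5 TPM in colon and between 58.3 and 70.4 TPM in blood. Single markers of this list did not all follow that order. Olfm4 had means of 115.8 TPM in small intestine and 7.42 in colon, and Krt18 was highest in blood (56.3). Epcam (2.115 against 7.28), Krt19 (2.99 against 8.14) and Lgals4 (10.2 against 36.2) were lower in small intestine than in colon. Epcam was at 0 in 1 of 4 small intestine libraries and 3 of 4 blood libraries, and at 3.51 TPM or more in colon. Erythroid and platelet markers summed to between 39190 and 118900 TPM in blood, between 115 and 373 TPM in colon and between 95.2 and 17810 TPM in small intestine. Their part in the members' levels was not tested.

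The sort split small intestine eosinophils by Nmur1 reporter signal, on libraries that took no part in the tissue comparisons. In these cells 4 of 7 genes were called, against 14.4% of the 7982 genes tested, and all 4 fell in Nmur1+ cells: S100a6, Emp3, S100a10 and Lgals1. That fit did not use the replicate numbers. With the replicate number as a block, 5 of 7 were called, against 1342 of the 7982 genes. Lgals1 was then not called, Lmna was called lower and S100a11 was called higher. Changes are positive minus negative, relative to a median gene that moved by 0.22.

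S100a6 was at 0, 7.15, 6.43, 3.11 and 9.36 TPM in the 5 Nmur1+ libraries, and ranged from 8.58 over a median of 28.6 to 66.3 TPM in the 6 Nmur1- libraries. The groups overlapped only in that 1 Nmur1+ library exceeded the lowest Nmur1- library. S100a6 fell by 2.69 (SE 0.59, limma adjusted p = 0.00957), by 1.89 with a pseudocount of 5 and by 3.48 with 0.1.

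Emp3 was at 5.20, 5.93, 5.25, 3.32 and 5.63 TPM in Nmur1+ libraries, and from 17.7 over a median of 30.4 to 42.5 TPM in Nmur1- libraries. The groups did not overlap. Emp3 fell by 2.51 (SE 0.28, limma adjusted p = 5.78e-05), and by 1.91 with a pseudocount of 5.

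S100a10 was at 129, 107, 70.5, 132 and 120 TPM in Nmur1+ libraries, and from 177 over a median of 218 to 272 TPM in Nmur1- libraries. Again no value overlapped. S100a10 fell by 1.21 (SE 0.17, limma adjusted p = 0.000815).

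Lgals1 was at 7.51, 10.7, 11.8, 5.81 and 6.92 TPM in Nmur1+ libraries, and from 12.3 over a median of 17.1 to 21.2 TPM in Nmur1- libraries. These ranges also stood apart, by less than 1 TPM. Lgals1 fell by 1.18 (SE 0.26, limma adjusted p = 0.0207), and the call was lost with a replicate block (adjusted p = 0.0805) and without positive replicate 5 (adjusted p = 0.0547).

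Lmna was at 17.0, 9.86, 7.5, 4.66 and 15.6 TPM in Nmur1+ libraries, and from 8.88 over a median of 21.0 to 31.8 TPM in Nmur1- libraries. The groups overlapped. Its change of -1.13 (95% interval -1.90 to -0.37, limma adjusted p = 0.101) passed the threshold with a replicate block (-1.46, adjusted p = 0.0431) and without negative replicate 4 (adjusted p = 0.0357).

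Anxa2 was at 46.0, 42.8, 30.4, 33.7 and 38.4 TPM in Nmur1+ libraries, and from 39.8 over a median of 57.9 to 69.5 TPM in Nmur1- libraries. The ranges overlapped at their edge. Its change was -0.72 (95% interval -1.14 to -0.31, limma adjusted p = 0.0946), and it was called with median-ratio scaling (adjusted p = 0.0224) and quantile normalization (adjusted p = 0.0257).

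S100a11 was at 1020, 1583, 1171, 1893 and 1465 TPM in Nmur1+ libraries, and from 958 over a median of 1228 to 1323 TPM in Nmur1- libraries. It was the 1 measured member not below the negative mean. Its change was 0.01 (95% interval -0.30 to 0.32, limma adjusted p = 0.314), and it was called higher with a replicate block (0.09, adjusted p = 0.0281) and with quantile normalization (0.44, adjusted p = 0.0422). Within the 4 replicate numbers shared by both groups, the Nmur1+ library was lower in 4 of 4 for S100a6, S100a10, Lgals1, Emp3 and Lmna, in 3 of 4 for Anxa2 and in 0 of 4 for S100a11. How many of all genes tested did not overlap between the groups, or were lower in 4 of 4, was not counted. Overlap and direction are therefore descriptions of these members only.

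**Figure D3:**
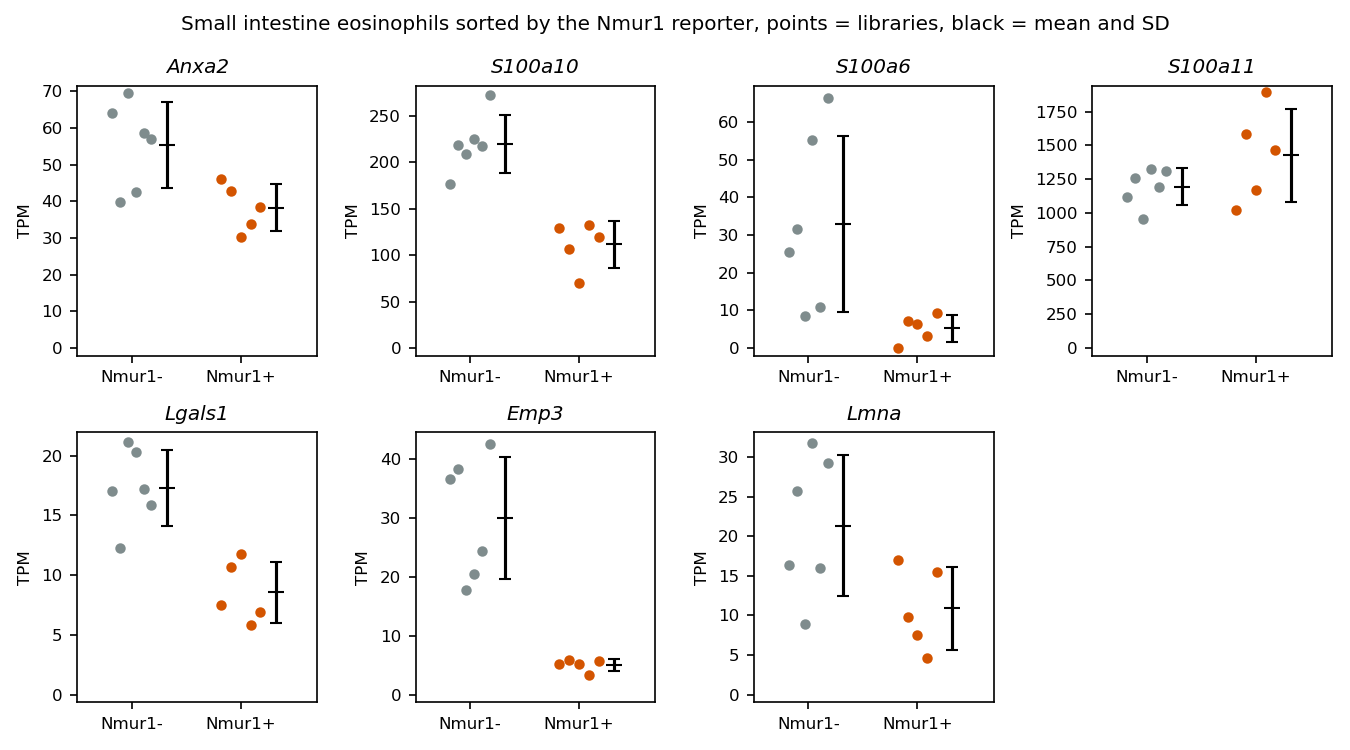
Level of the 7 measured members (TPM) in the 5 Nmur1+ and 6 Nmur1- small intestine libraries; points are libraries and black marks are the mean and SD. S100a10, Lgals1 and Emp3 did not overlap between the groups, whereas S100a11 overlapped with a higher Nmur1+ mean. How many of all genes tested did not overlap was not counted, so this describes the members only.

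Other cell markers also differed in the sort. The 7 of 12 macrophage and monocyte markers in the sorted table summed to between 757 and 1054 TPM in Nmur1+ and between 385 and 543 TPM in Nmur1- libraries, and the 11 of 12 eosinophil markers to between 2988 and 3661 and between 3175 and 3787 TPM. The 2 of 12 gut epithelium markers, Krt18 and Olfm4, summed to between 113 and 239 TPM in Nmur1+ and between 79.5 and 96.7 TPM in Nmur1- libraries. Neither was confined to gut libraries: marrow means were 27.2 TPM for Krt18 and 41.5 TPM for Olfm4, and blood had 56.3 TPM of Krt18. The 2 of 11 stroma and endothelium markers, Pecam1 and Acta2, summed to between 167 and 243 and between 86.5 and 149 TPM. The neutrophil list, with 5 of 12 markers and mostly Retnlg, summed to between 5818 and 9918 and between 9320 and 12650 TPM, and S100a9 was at 0 in 1 of 5 Nmur1+ libraries. The 3 of 8 dendritic cell markers summed to between 339 and 472 TPM in Nmur1+ and between 226 and 2077 TPM in Nmur1- libraries. Their part in the members' differences was not tested.

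Where a gene stood within its own library was described by its percentile among the 7941 genes that both tables hold. S100a6 was at 98.4 in blood, 94.9 in colon and 64.3 in small intestine, and at 55.9 in Nmur1- and 13.97 in Nmur1+ libraries. Emp3 was at 95.3, 93.0 and 54.1 in the same tissues, and at 60.01 and 13.1 in the sort. In both, the Nmur1- mean lay within the range of the total small intestine libraries, and the Nmur1+ mean was far lower. The spread was wide. S100a6 ran from 48.2 to 79.1 in small intestine, 26.2 to 78.9 in Nmur1- and 0 to 24.3 in Nmur1+ libraries. Emp3 ran from 37.35 to 74.0, 45.9 to 70.2 and 8.59 to 16.7 in the same groups. Lgals1 was at 51.4 in small intestine, 47.0 in Nmur1- and 23.5 in Nmur1+ libraries. Lmna was at 70.6 in blood, 95.5 in colon, 27.9 in small intestine, 50.5 in Nmur1- and 28.8 in Nmur1+ libraries. S100a10 kept a high place, at 99.1 in blood, 87.6 in small intestine, 92.3 in Nmur1- and 84.6 in Nmur1+ libraries. S100a11 means stayed above 98 throughout. These ranks come from tables normalized separately and carry no test between them.

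**Figure D4:**
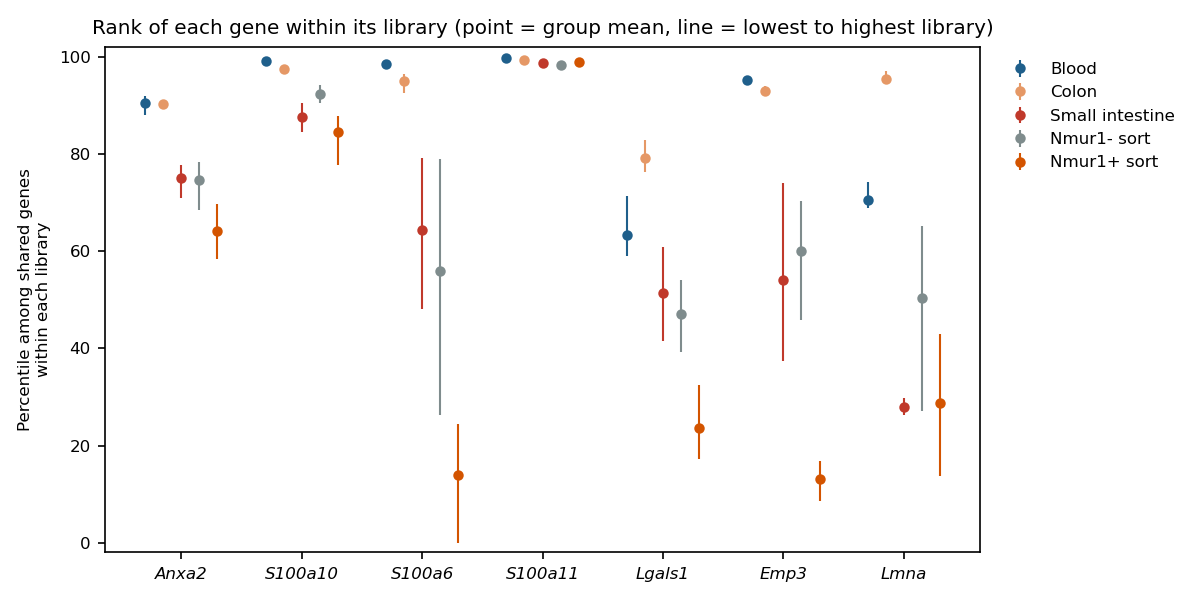
Within-library percentile, among the 7941 shared genes, of the 7 members measured in both tables, in blood, colon, small intestine and the sorted groups; points are group means and lines run from the lowest to the highest library. S100a6 and Emp3 dropped from above 90 in colon to 64.3 and 54.1 in small intestine and to 13.97 and 13.1 in Nmur1+ libraries, while S100a11 stayed near the top.

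The members did not share a single tissue pattern. Over the 7 tissue means, S100a6 and Emp3 were most alike (Pearson r = 0.967, a description over 7 points), followed by S100a10 and S100a11 (r = 0.954). Anxa2 and S100a10, partners in a protein complex, had r = 0.456, and Anxa1 and Lmna were the least alike (r = -0.132). The correlation with the members' mean profile was highest for S100a6 (0.987) and Emp3 (0.980) and lowest for Lgals1 (0.558) and Lmna (0.386). Among 7130 other genes, the 10 most like that profile included Adk, an adenosine kinase (r = 0.991, with 49.6 TPM in blood and 4.04 in small intestine), Anxa5 (r = 0.974), Sec11c (0.968) and Chst13 (0.966). Tmsb10 and Flna, which bind actin, were also among them.

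Genes related by pathway were counted by lists chosen with earlier results of these data known, and the most abundant members are named. From blood to small intestine, where 44% of genes were called, the 6 other annexins tested gave 1 that rose (Anxa6, 253 to 514 TPM, 0.88, limma adjusted p = 2.1e-06) and 2 that fell, among them Anxa5 (269 to 100 TPM, -1.56, adjusted p = 1.8e-09). Anxa6 thus went the opposite way to Anxa1 and Anxa2. The annexins that rose numbered 2 without blood replicate 3 or small intestine replicate 4 and 3 without blood replicate 4, and those that fell 1 without small intestine replicate 1. Of 5 other S100 genes, 0 rose (also 0 at an unadjusted limma p under 0.05) and 2 fell, S100a13 at -1.54 (limma adjusted p = 1.07e-08). Of 6 other galectins, 2 rose and 1 fell: Lgals9 (1.65, limma adjusted p = 1.52e-09) and Lgals8 (1.43, adjusted p = 1.85e-05) rose, and Lgals3 fell by 1.001 (adjusted p = 5.83e-05).

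Of 17 lamina and nuclear envelope genes, 4 rose and 9 fell, among the latter Syne1 (-0.78), Lbr (-1.22) and Nrm (-1.71). Of 25 genes of the membrane and cortical cytoskeleton, 6 rose and 11 fell, with Actg1 higher (0.87) and Actb lower (-0.78). Of 7 tested receptors and partners of annexin A1, annexin A2 and S100A10, 3 rose and 1 fell, and Plaur, the urokinase receptor, went from 77.4 to 2663 TPM. Of 10 glucocorticoid response genes, 3 rose and 6 fell, and the most abundant, Dusp1 (-1.66), Tsc22d3 (-2.11) and Sgk1 (-2.38), fell. The count that rose was 1 without blood replicate 2 or 4 or small intestine replicate 1 or 2. Falls in this list were not particular to small intestine. Against blood, 1 rose and 6 fell in skin, where 37.1% of all genes were called. In colon 2 rose and 4 fell (31.9% of all genes called), and in lung 2 rose and 2 fell (35.7%). In spleen 0 rose and 1 fell (1.09%). From marrow to blood 7 rose and 0 fell (34.6%). Pmp22, of the Emp3 family, was listed at 0 in blood and had a mean of 1.68 TPM in small intestine, and its call was lost without small intestine replicate 2.

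In the sort, where 14.4% of genes were called, 9 of 25 cytoskeleton genes fell and 0 rose in Nmur1+ cells (1 at an unadjusted limma p under 0.05), among them Tmsb4x (-0.75, limma adjusted p = 0.00305) and Actb (-0.63, adjusted p = 0.0426). That count of 9 became 4 with quantile normalization, and 5 without positive replicate 4 or negative replicate 7. Of 4 other galectins, Lgals9 (0.47) and Lgals8 (0.83) rose and Lgals3 (-0.80) fell, the same directions as between small intestine and blood. Of 6 other annexins 1 rose and 0 fell (1 at an unadjusted limma p under 0.05). Of 4 other S100 genes limma called 0, and 1, S100a13, was lower at an unadjusted p under 0.05 (-0.78, limma adjusted p = 0.089). Of 16 lamina genes 2 rose and 1 fell, of 7 partners 1 rose, Plaur (0.34, limma adjusted p = 0.0274), and of 9 glucocorticoid response genes 1 rose and 1 fell. With a replicate block, 1 annexin and 2 S100 genes fell, 2 partners and 3 glucocorticoid response genes rose, and 0 lamina genes fell. Apart from the galectins, these small counts also moved by single libraries, as the cytoskeleton count did. The partner that rose was lost without positive replicate 3, 5 or 8 or negative replicate 8, and 2 rose without negative replicate 4. The glucocorticoid response gene that rose was, among fits that left out 1 library, called in those without positive replicate 8, negative replicate 3 or negative replicate 7. Lamina genes that fell numbered 0 without positive replicate 1 or 3 or negative replicate 5 or 8, and 2 without negative replicate 7. Without positive replicate 1 an annexin fell, and without negative replicate 2 an S100 gene fell.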

How the data were processed

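The members, gene lists, tests and alternatives were chosen with earlier results of these data known. The authors deposited TPM values, 1 table for 24 tissue libraries and 1 for 11 sorted libraries, without read totals. The tools named, per the submitters' processing notes, are RSEM 1.3.3, STAR 2.7.5c and cutadapt 2.10, and the build is mm10. For the annotation and the filter on genes, the procedure is not given in the sources used here. Deposited TPM columns summed to between 796048 and 890768. A single-cell sample was not analysed here.

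Sample titles gave groups and replicate numbers. The test was limma (version 3.58.1, under R 4.3.3) on log2(TPM + 1) (lmFit, eBayes with trend, two-sided), for genes with at least 1 TPM in at least 3 tissue libraries or 5 sorted libraries. The 24 tissue libraries shared 1 spread estimate, the tables were fitted separately, and p-values were adjusted by Benjamini-Hochberg over all 9806 or 7982 genes tested. A log2(TPM + 1) change understates that of low genes. Within the sort, libraries sharing a replicate number deviated together (correlations of deviations 0.225, 0.168, 0.167 and 0.164 over 4 numbers), so the numbers were taken to pair them and blocked values are given where a call changed. The pairing comes from the data alone, since the labels name no shared animal or day. Alternatives changed the pseudocount (0.1 or 5), the filter (none or 5 TPM), the scaling (median-ratio or quantile), the spread estimate (robust, or only the compared tissues), the replicate block, and the libraries left out.

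All 9 genes are named, with some of the 3 most abundant genes of each related list and part of the 10 genes most like the members' mean tissue profile, of which some are not reported here. Plain counts of related genes and markers cover all listed genes in the table.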

Additional observations from a re-analysis of the deposited data

Results flagged for a closer look

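Of 38 sets of values, each 1 member in 1 group of 4 to 6 libraries, 2 held a library that stood apart from the others by Dixon's criterion, which chance meets in about 1 of 20 sets. Lgals1 in spleen replicate 1 was at 166.15 TPM, where the other 3 spleen libraries lay between 55.8 and 73.85 TPM (gap over range 0.836). Emp3 in Nmur1+ replicate 5 was at 3.32 TPM, where the other 4 lay between 5.2 and 5.93 TPM (gap over range 0.72).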

How the results depend on the processing

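Over all alternatives, 604 of 653 tested member changes kept their direction and side of the threshold, 15 gained a call, 12 lost it and 22 changed sign, of which Anxa2 in skin without skin replicate 4 was also called (0.51, limma adjusted p = 0.00621). With quantile normalization these were S100a6 (-0.0042) and Emp3 (-0.044) in blood against marrow, S100a11 in spleen (0.043), and S100a6 (-0.040) and S100a10 (-0.028) in lung. A pseudocount of 5 turned S100a11 in spleen (0.0026) and Anxa2 in skin (0.054), and a pseudocount of 0.1 (-0.0036) and median-ratio scaling (-0.00064) turned S100a11 in the sort. Leaving out 1 library each gave ranges of -0.065 to 0.29 for S100a6 in blood against marrow, of -0.15 to 0.076 for S100a11, -0.19 to 0.032 for S100a10 and -0.12 to 0.057 for Emp3 in spleen, of -0.36 to 0.51 for Anxa2 in skin and of -0.11 to 0.12 for S100a11 in the sort.

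In spleen, 107 genes were called, 22 with only the 2 tissues in the fit, and 69 to 119 without 1 library each, the lowest without blood replicate 1 or spleen replicate 4. Members called there went from 1 to 0 with only the 2 tissues. In lung, members called went from 2, with 3500 of all 9806 genes called, to 1 with a pseudocount of 0.1 (3663 genes). They went to 4 with median-ratio scaling (3159 genes) and to 3 with only the 2 tissues in the fit (3052 genes). With the replicate block 1 was called (3375 genes), and without 1 library each 1 to 2 (2970 to 3190 genes). The cause was not tested. In the sort quantile normalization called 6 members and 957 of all 7982 genes, and median-ratio scaling 5 members and 954 genes. The replicate block called 5 members in place of 4 and 1342 genes in place of 1152. Replicate numbers did not pair tissue libraries (correlations of deviations from -0.0369 to 0.0428), and the block there changed no member call other than that of Anxa1 in lung.

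The members' median gut changes stayed within their spread in 49 of 49 alternatives, as did 387 single gut changes, whereas 5 moved. Median-ratio scaling moved the share of called genes that were higher from 63.6% to 38.0% in the sort, from 25.2% to 48.5% in lung and from 61.8% to 51.1% in skin. Among related lists in small intestine against blood, annexins higher went from 1 to 2 with a pseudocount of 5 or only the 2 tissues, annexins lower from 2 to 1 with only the 2 tissues, and Pmp22 was not called with a pseudocount of 5 or a 5 TPM filter. The depth is unknown, so no limit can be set on values near 0.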
